A study of Rattus norvegicus with 32 samples.

Results

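Metyrapone given before traumatic brain injury (TBI) was compared with saline given before the same injury, 24 h later, in neurons of the hippocampal CA3 field. The comparison was defined by the sample titles and held 4 of the 16 pooled RNA samples of the study, which is 8 of its 32 arrays. Of these, 2 samples came from rats given TBI and saline (TBI) and 2 from rats given TBI and metyrapone at 100 mg/kg (TBI+MT), and every pooled sample was hybridized to 2 arrays, called a and b. Adult male Sprague-Dawley rats received a lateral pressure pulse to the brain (fluid percussion) under anesthesia, with the drug or saline injected under the skin beforehand. The sources used here give different intervals between drug and injury, and count the 24 h from treatment or from surgery. Each sample pooled neurons of several rats, and the samples of a group came from separate rats. The neurons were collected by laser capture from the injured side, next to dying ones, and had been left unstained by Fluoro-Jade, a dye for degenerating neurons. The RNA went through 2 rounds of amplification before labeling. Samples from sham-injured rats given saline (sham) and from rats given TBI and carbenoxolone at 30 mg/kg (TBI+CB), also 24 h and 2 samples a group, are given beside the values where they help to read them.

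Metyrapone blocks the last steps by which the adrenal cortex makes corticosterone, the main glucocorticoid of the rat. The study names the enzyme Hsd11b1 as a target that metyrapone shares with carbenoxolone. Glucocorticoids bind receptors in the cell, the glucocorticoid receptor (Nr3c1) and the mineralocorticoid receptor (Nr3c2), both of which are known in hippocampal neurons, and the bound receptors switch target genes such as Fkbp5 and Sgk1. CA3 pyramidal neurons are among the cells of the hippocampus known to be vulnerable to brain injury.

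Values are spot intensities of CodeLink oligonucleotide arrays divided by the median of their array, set to at least 0.1, and the level of a sample is the geometric mean of its 2 arrays in multiples of the array median. A difference is a log2 value, TBI+MT minus TBI, with the standard error (SE) of a model fitted over all 8 groups of the study, and a probe passed where its adjusted p was under 0.05. The scanner software marks spots near background, and a probe was kept where at least 1 group of the study had it above background on every array, which left 17671 of 33849 probes with 8258 named genes. Only 7625 probes were above background on all 8 arrays compared here. Levels of different genes are not compared, since each probe binds with its own strength. In pooled tissue RNA, fewer cells of a type and less RNA per cell cannot be told apart. Since samples are pools, the p-values measure the spread between pools and not that between rats. That spread is estimated from all 8 groups together. The difference between the 2 samples of a group had an SD over probes of 1.68 in TBI+MT, the largest of the groups, and 0.76 in TBI. The SE can therefore understate the spread of the metyrapone samples.

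Both metyrapone samples differed in brightness, and the array plot shows how far. The arrays of TBI+MT sample 1 had median intensities of 10.5 and 9.67, and 28.8% and 26.1% of the probes were above background on them. Those of TBI+MT sample 2 had medians of 23.8 and 14.0 with 48.8% and 42.0% above background, and its array a carried 592 spots marked contaminated. The 4 TBI arrays had medians of 14.2 to 18.7 and 39.7% to 46.1% above background. Metyrapone sample 1 thus lay below them on both measures, while array a of metyrapone sample 2 lay above them and its array b did not. The carbenoxolone samples differed in brightness too. Sample 1 of TBI+CB had medians of 43.8 and 40.7 with 58.5% and 57.3% above background. Sample 2 of TBI+CB had 9.41 and 9.65 with 30.0% and 30.2%. Over the probes kept, the metyrapone samples correlated with each other at 0.733 on the log2 scale. The value was 0.841 for the carbenoxolone samples, 0.868 for the sham samples and 0.943 for the TBI samples. Metyrapone sample 1 was closest to sham sample 2 (0.907) and metyrapone sample 2 to sham sample 1 (0.890) and carbenoxolone sample 1 (0.888), which are descriptions of these arrays that share all their probes. The slide numbers in the scanner files fall into 3 runs, and both drug groups at 24 h lie in a run that holds no TBI or sham array, so drug and slide run cannot be told apart in the comparison with saline.

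**Figure D1:**
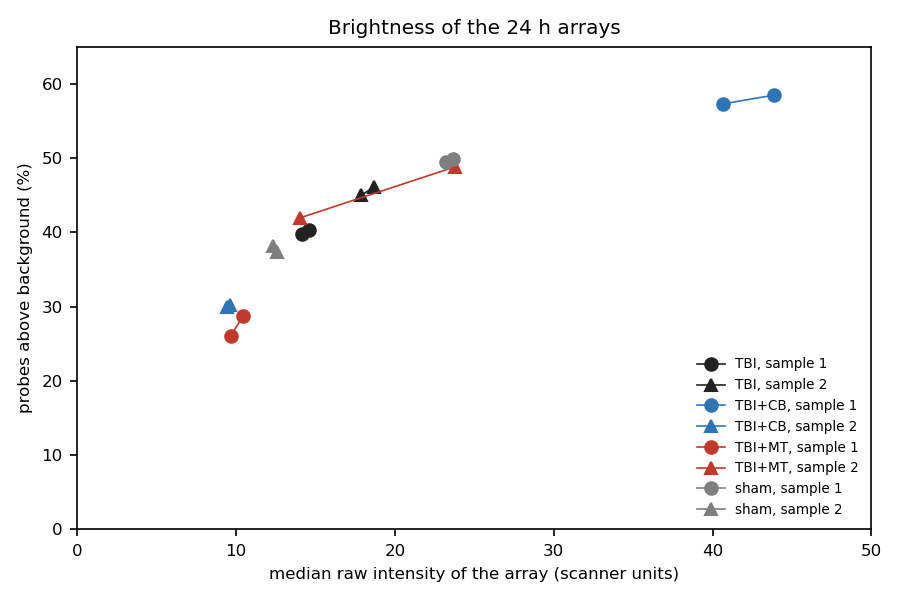
Median raw intensity of each 24 h array (x axis, scanner units) against the share of probes above background (y axis, %), with a line joining the 2 arrays of a sample and circles and triangles for samples 1 and 2 of a group. The arrays of TBI+MT sample 1 sit at 28.8% and 26.1%, below all sham and TBI arrays, whereas those of TBI+MT sample 2 sit at 48.8% and 42.0%.

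No probe passed in the comparison with saline, and the smallest adjusted p among 17629 probes was 0.438 (limma, Benjamini-Hochberg adjustment). Without adjustment 973 probes had p under 0.05, a share of 5.52%, of which 807 were lower after metyrapone (4.58%) and 166 higher (0.942%). An exact permutation test of 2 samples against 2 cannot go below p = 0.333333. In the direction of the difference, 13042 probes were lower and 4587 higher, a split of 74% to 26%. This split depended on how arrays were scaled: 63.3% were lower after quantile normalization and 58.4% after scaling to the 75th percentile of bright probes, and the median difference over all probes, -0.39 as reported, was -0.19 and -0.11. For this reason group medians below are given less the median of all probes.

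Counts over 2-fold were 2430 probes lower (13.8%) and 972 higher (5.51%). The 2 metyrapone samples lay below both TBI samples for 5044 probes (28.6%) and above both for 1005 (5.7%). With quantile normalization these became 2981 (16.9%) and 1580 (8.96%), and with the 75th percentile 2534 (14.4%) and 2061 (11.7%). Among the probes above background on all 8 arrays, 2452 (32.2%) lay below and 170 (2.23%) above. The most frequent position of the metyrapone samples was on opposite sides of the TBI samples: sample 1 below both and sample 2 above both for 5892 probes (33.4%), and the reverse for 1221 (6.93%). The samples of TBI+MT differed by more than 2-fold for 58.3% of the probes. Those of TBI+CB did so for 57%, those of sham for 37.9% and those of TBI for 13.1%.

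The genes with the smallest p on the lower side were Mamdc4, Pola1, Yap1, Acox3, Plin3, Klc3, Utrn, Chst2, Plaat5 and Scn4a. Mamdc4, a protein of the apical cell membrane, had levels of 2.08 and 1.94 in TBI and 0.319 and 0.200 in TBI+MT. Its sham levels were 1.52 and 1.55 and its carbenoxolone levels 0.952 and 0.953. As measured, the metyrapone samples were thus the lowest at 24 h, with no overlap with any other group. They were below background on all arrays, which makes the gene at least 1.53-fold lower than in TBI, and the fitted difference was -2.99 (SE 0.45, adjusted p = 0.438). Carbenoxolone sample 2 was under the lowest signal above background of its arrays (1.96 and 1.94), so its order against metyrapone cannot be told. With quantile normalization Mamdc4 and Pola1 passed, both at an adjusted p of 0.0411, and with array a alone Mamdc4 passed at 0.0186.

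Pola1, the catalytic subunit of the DNA polymerase that starts new strands, had 1.74 and 1.89 in TBI against 0.240 and 0.212 in TBI+MT. The groups did not overlap, and since the metyrapone arrays were below background the gene was at least 1.38-fold lower (difference -3.01, SE 0.49, adjusted p = 0.438). A second, brighter Pola1 probe had 4.76 and 4.35 against 3.62 and 2.57, a difference of -0.58, which also meets the bound of the first. Yap1, a transcriptional coactivator of the Hippo pathway, had 1.39 and 1.94 against 0.208 and 0.247 (difference -2.85, SE 0.54, at least 1.25-fold lower, adjusted p = 0.581). All 3 genes, by the probes named, were between 1.29 and 2.08 times the array median in TBI and in sham, so that these differences lie between a dim signal and background.

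Acox3, which oxidizes branched-chain fatty acids in peroxisomes, differed from these in its sham levels. It had 0.244 and 0.323 in sham, 5.31 and 8.38 in TBI, and 0.496 and 0.417 in TBI+MT. Carbenoxolone samples had 0.366 and 1.41. Only the TBI samples were high, and the metyrapone samples lay near the sham samples. The gene was at least 5.07-fold lower after metyrapone, the largest bound among the 10, with a difference of -3.87 (SE 0.74, adjusted p = 0.581). Plin3, which coats lipid droplets, had a like order: 0.256 and 0.664 in sham, 2.10 and 1.88 in TBI, and 0.302 and 0.231 in TBI+MT (difference -2.91, SE 0.61, at least 1.51-fold lower). In both genes the drug comparison rests on the same 2 TBI samples that stand above sham.

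Chst2, which adds sulfate to sugar chains, was the member of this set with the brighter metyrapone signal, at 4.93 and 4.86 in TBI and 0.802 and 1.34 in TBI+MT (difference -2.24, SE 0.49, adjusted p = 0.581). Its second probe went the other way, with 1.37 and 2.58 against 3.81 and 10.2 (difference 1.73), so no direction can be given for Chst2 as a gene. Klc3, a kinesin light chain, had 1.80 and 2.26 against 0.465 and 0.297. Utrn, which links the cytoskeleton to the membrane, had 1.67 and 1.78 against 0.427 and 0.339, and Scn4a, a sodium channel of skeletal muscle, 2.45 and 2.47 against 0.363 and 0.659, while the brighter probe of Scn4a had a difference of -0.37. Plaat5, a phospholipid acyltransferase, had 5.15 and 2.91 against 1.10 and 0.497. The differences of these 4 genes ran from -2.44 for Klc3 to -2.18 for Utrn, and none passed. In all 10 genes the groups do not overlap under any of the 3 scalings, which the choice by smallest p favors and which is therefore a description.

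On the higher side the 10 genes were Tasp1, Nalcn, Zfand2a, Dennd6b, Haus3, Taf15, Rasa1, Sarnp, S100a7l2 and Krt15. Nalcn, the channel that carries the sodium leak current setting the resting potential of neurons, had 0.210 and 0.226 in TBI and 1.45 and 3.73 in TBI+MT. Its sham levels were 2.64 and 2.40 and its carbenoxolone levels 0.895 and 0.470. The TBI samples were the lowest, and the metyrapone samples lay on either side of the sham samples. TBI was below background on all arrays and metyrapone above it on 1 (difference 3.41, SE 0.88, adjusted p = 0.684). The measured metyrapone mean was 2.00-fold above the upper limit for TBI. That is not a firm minimum, since most metyrapone arrays were below background themselves.

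Haus3, a subunit of the augmin complex that branches spindle microtubules, was the only 1 of the 10 above background on all metyrapone arrays. It had 1.45 and 1.12 in TBI against 4.94 and 8.73 in TBI+MT (difference 2.37, SE 0.68, adjusted p = 0.745), with sham at 2.55 and 5.17. Taf15, an RNA-binding protein of the transcription machinery, had 0.315 and 0.902 against 13.1 and 1.56. Metyrapone sample 1 thus set most of its difference of 3.08 (SE 0.90). The measured metyrapone mean of Taf15 was 3.76-fold above the upper limit for TBI, which is again not a firm minimum. Rasa1, which switches off Ras, had 0.292 and 0.267 against 0.787 and 3.45, where sample 2 was the higher. Zfand2a, a stress-induced zinc finger protein, had 0.213 and 0.148 against 0.879 and 1.12. In 9 of the 10 genes the TBI samples were below background on all arrays.

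**Figure D2:**
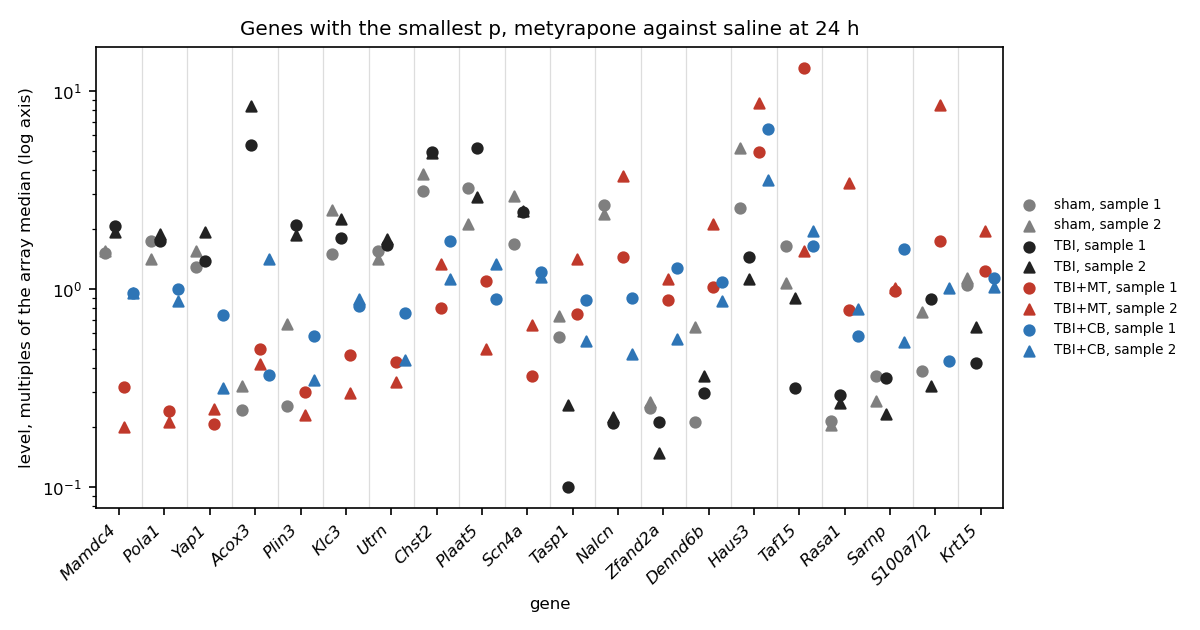
Level of each sample (y axis, multiples of the array median, log axis) for the 10 lower and 10 higher genes with the smallest p (x axis), as circles for sample 1 and triangles for sample 2 of sham, TBI, TBI+MT and TBI+CB at 24 h. Acox3 stands out with TBI at 5.31 and 8.38 and all other samples at 1.41 or less, and Nalcn with TBI at 0.210 and 0.226 and sham at 2.64 and 2.40.

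Promoter sequence of 3 of these genes is printed because they show 3 different orders of the groups as measured: Mamdc4 lowest in TBI+MT, Acox3 highest in TBI, and Nalcn lowest in TBI. The lowest groups of Mamdc4 and Nalcn were below background. Each runs from 250 bases before to 50 after the gene's start in RefSeq (build GRCr8), all on the minus strand, at chr3:28789090-28789389, chr14:79400832-79401131 and chr15:107147809-107148108. Capitals mark AGAACA or its reverse complement TGTTCT, the half-site that the glucocorticoid receptor binds, and TGACGTCA, the cyclic AMP response element bound by CREB, searched on both strands.
Mamdc4: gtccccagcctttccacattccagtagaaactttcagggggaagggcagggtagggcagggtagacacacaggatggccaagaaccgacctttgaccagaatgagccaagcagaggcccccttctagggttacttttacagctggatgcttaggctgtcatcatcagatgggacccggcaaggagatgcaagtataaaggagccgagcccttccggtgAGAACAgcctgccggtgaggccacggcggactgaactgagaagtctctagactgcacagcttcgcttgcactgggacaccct
Acox3: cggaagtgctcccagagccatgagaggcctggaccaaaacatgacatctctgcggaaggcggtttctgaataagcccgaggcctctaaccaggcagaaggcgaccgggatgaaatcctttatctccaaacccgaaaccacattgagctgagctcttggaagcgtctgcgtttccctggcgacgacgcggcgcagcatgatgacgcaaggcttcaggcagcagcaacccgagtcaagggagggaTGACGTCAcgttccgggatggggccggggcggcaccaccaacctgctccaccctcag
Nalcn: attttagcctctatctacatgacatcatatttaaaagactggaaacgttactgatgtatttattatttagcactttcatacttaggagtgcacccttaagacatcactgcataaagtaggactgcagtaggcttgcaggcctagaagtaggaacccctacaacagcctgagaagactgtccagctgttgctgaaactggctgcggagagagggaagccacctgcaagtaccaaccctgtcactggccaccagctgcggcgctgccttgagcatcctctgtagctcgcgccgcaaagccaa
The half-site begins at base 219 of the Mamdc4 window, and 20.7% of 33469 promoter windows hold it. The response element begins at base 244 of the Acox3 window, and 1.83% of the windows hold it. Neither is in the Nalcn window.

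Among the probes above background on all 8 arrays, where both groups gave a measured level, the widest gaps on the lower side were those of Cyp2a1, Opn4, Serinc2, Ppp1r15a, Sap30bp, Cers2, Mbd3 and Zp3. Cyp2a1, a cytochrome P450 best known from liver, had 20.8 and 24.4 in TBI and 5.37 and 4.62 in TBI+MT. Sham samples had 19.98 and 30.4 and carbenoxolone samples 7.65 and 5.71. Both drug groups were thus low and both groups without drug high, which is also the division between slide runs. The difference from saline was -2.18 (SE 0.60, adjusted p = 0.736) and that from carbenoxolone -0.41 (SE 0.60).

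Opn4, the photopigment melanopsin, had 12.8 and 11.9 in TBI against 3.19 and 3.75 in TBI+MT, with carbenoxolone at 7.46 and 3.68 (difference -1.84, SE 0.46, adjusted p = 0.684). Zp3, an egg coat protein, had 12.8 and 11.4 against 4.40 and 2.89, with carbenoxolone at 5.30 and 2.87 (difference -1.76, SE 0.49). What these probes bind in hippocampal RNA was not tested. For Cyp2a1, Opn4 and Zp3 the carbenoxolone samples were below both TBI samples as well.

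Serinc2, a membrane protein of the serine incorporator family, was lower than in both other injured groups, at 51.7 and 58.5 in TBI, 16.9 and 9.75 in TBI+MT, and 38.5 and 27.1 in TBI+CB. Its difference was -2.10 from saline (SE 0.55, adjusted p = 0.70) and -1.33 from carbenoxolone (SE 0.55, adjusted p = 0.786). Ppp1r15a, which reverses the block on translation in stressed cells, had 19.2 and 20.3 in TBI and 6.83 and 6.81 in TBI+MT (difference -1.54, SE 0.60), and its brighter probe had 87.7 and 73.9 against 101 and 28.1 (difference -0.60). Cers2, a ceramide synthase, had 23.4 and 25.8 against 8.93 and 6.73, Mbd3, a subunit of a chromatin remodeling complex, 45.1 and 42.4 against 15.5 and 16.2, and Sap30bp, a corepressor partner, 9.81 and 13.5 against 3.67 and 3.50. The other Sap30bp probes had differences of -0.45 and -0.42. For Cers2, Mbd3 and Sap30bp, carbenoxolone sample 2, which has dim arrays, was about as low as the metyrapone samples and carbenoxolone sample 1 was not.

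The widest gaps on the higher side were those of Nsun6, Msl1, Ppp1cc, Iqcb1, Camk2g, Msantd2, Hccs and Ercc5. Msl1, a subunit of a histone acetylating complex, had 71.8 and 50.2 in TBI and 141 and 147 in TBI+MT, with sham at 188 and 239 (difference 1.27, SE 0.72, adjusted p = 0.915). Camk2g, a calcium-calmodulin kinase, had 8.98 and 13.1 against 23.9 and 25.1, with sham at 23.6 and 27.8 (difference 1.18, SE 0.76). By these probes the metyrapone samples lay close together and between or beside the sham samples, above TBI. The choice by widest gap favors metyrapone samples that stand apart from TBI, on either side, so this separation is a description. Sham levels of the higher side are given in the text for Msl1 and Camk2g only. The second Msl1 probe split the metyrapone samples instead, with 10.9 and 13.3 in TBI against 2.50 and 52.1 (difference -0.08), and that of Iqcb1 had a difference of -0.05.

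Ppp1cc, a catalytic subunit of protein phosphatase 1, had 4.21 and 4.49 against 8.62 and 8.83 (difference 1.01, SE 0.87). Hccs, which attaches heme to cytochromes c, had 5.82 and 7.68 against 13.4 and 16.0 (difference 1.13, SE 0.50), and Ercc5, a DNA repair nuclease, 2.96 and 2.05 against 5.13 and 5.18 (difference 1.07, SE 0.69). The largest difference of the 8 was that of Nsun6, an RNA methyltransferase, with 1.89 and 2.22 against 5.80 and 15.9 (difference 2.23, SE 1.46). Differences over 2-fold were less frequent here than among all probes, at 72 higher (0.944%) and 481 lower (6.31%) of the 7625.

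**Figure D3:**
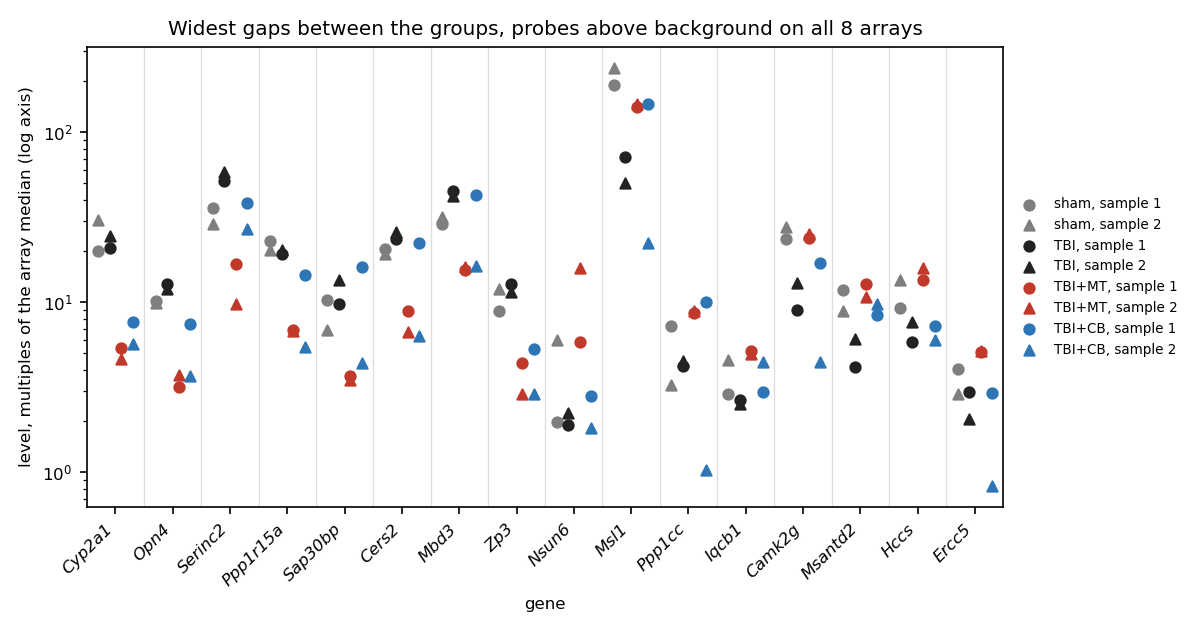
Level of each sample at 24 h (y axis, multiples of the array median, log axis) for the 8 genes with the widest gap on each side among probes above background on all 8 arrays (x axis, lower side first). For Cyp2a1 the metyrapone samples, at 5.37 and 4.62, lie beside the carbenoxolone samples, at 7.65 and 5.71, and for Msl1 the metyrapone samples, at 141 and 147, lie between TBI and sham.

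Metyrapone acts on corticosteroid synthesis, so the genes of that pathway were examined as a group. Of 31 genes listed, 19 had a probe and 10 were kept. By direction 9 were lower and 1 higher after metyrapone (74% of all probes were lower), and none had an unadjusted p under 0.05. Below both TBI samples lay 4 (40%, beside 28.6% of all probes). Under either other scaling 7 were lower and 3 higher. Then 2 (20%, beside 16.9%) lay below both TBI samples after quantile normalization and 1 (10%, beside 14.4%) after 75th percentile scaling. The list's median, less that of all probes, was -0.06, and 0.17 in metyrapone sample 1 and -0.23 in sample 2. Among the receptors, Nr3c1 had 1.81 and 1.65 in TBI and 0.946 and 0.858 in TBI+MT, with 2.11 and 1.62 in sham and 0.890 and 0.485 in TBI+CB. Both metyrapone samples were below both TBI samples, with 1 of their arrays above background (difference -0.94, SE 0.66, adjusted p = 0.92). With the 75th percentile scaling the groups overlapped. Nr3c2 had 36.2 and 47.0 in TBI against 7.70 in metyrapone sample 1 and 84.4 in sample 2, which lie on opposite sides (difference -0.70, SE 0.98).

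Of the enzymes, Hsd11b1, which turns the inactive steroid back into corticosterone, had 3.78 and 4.82 in TBI against 2.17 and 7.37 in TBI+MT (difference -0.09, SE 0.88), and its sign turned under both other scalings. Cyp21a1, the 21-hydroxylase, had 89.5 and 59.1 against 143 and 18.7 (difference -0.49, SE 0.91). Cyp17a1, the 17-hydroxylase, had 24.2 and 27.8 against 22.3 and 20.2 (difference -0.29, SE 0.42). Only for Cyp17a1 did the metyrapone samples agree, at a level just under that of TBI, and under both other scalings they overlapped with it. The enzyme the drug inhibits in the adrenal gland, Cyp11b1, and its neighbors in the pathway Cyp11a1 and Hsd3b1 had probes that did not pass the filter, as did Hsd11b2, Crh and Avp.

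Among the partners of the receptors, Fkbp4, an immunophilin of the receptor complex, had 17.2 and 22.9 in TBI against 8.87 and 16.4 in TBI+MT (difference -0.72, SE 1.10). The chaperone Hsp90ab1 had 3.62 and 8.58 against 5.58 and 6.81 and was the 1 member higher (difference 0.14, SE 1.00). The coactivator Ncoa1 had 186 and 200 against 160 and 185, the corepressor Ncor1 3.61 and 3.85 against 1.66 and 4.74, and Crhbp, which binds corticotropin-releasing hormone, 2.68 and 0.820 against 1.27 and 0.488. Ncoa1 turned to a positive difference under both other scalings.

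Genes known to be switched on by glucocorticoids gave no common direction. Of 30 listed, 21 were kept, 15 lower and 6 higher, none had an unadjusted p under 0.05 (4.58% of all probes did on the lower side), and 6 lay below both TBI samples (28.6%, as of all probes, of which 74% were lower). The median less that of all probes was -0.14, and in the single metyrapone samples -0.06 and -0.05. Fkbp5, the co-chaperone most often used as a readout of the receptor, had 112 and 121 in TBI against 49.1 and 144 in TBI+MT (difference -0.47). Sgk1, a kinase that regulates ion transport, had 14.8 and 17.5 against 4.25 and 25.8, and Errfi1, an inhibitor of the epidermal growth factor receptor, 21.4 and 34.9 against 6.14 and 57.7. In these 3 genes metyrapone sample 1 was below both TBI samples and sample 2 above both.

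Sample 1 was low and sample 2 high also for Cebpd, a transcription factor of the acute phase, at 0.759 and 15.4 in TBI+MT against 10.3 and 9.95 in TBI, and for Txnip, an inhibitor of thioredoxin, at 0.151 and 6.66 in TBI+MT against 2.33 and 1.24 in TBI. This order held for 8 of the 21 genes (38.1%), beside 33.4% of all probes. Other genes of the list had both metyrapone samples below TBI: Hif3a, an inhibitor of hypoxia signaling, with 7.74 and 9.24 in TBI against 6.08 and 4.01 in TBI+MT (difference -0.78, SE 0.50), and Mertk, a receptor for engulfing dead cells, with 8.71 and 9.79 in TBI against 6.96 and 4.65 in TBI+MT (difference -0.70, SE 0.46). Tat, a liver enzyme and classical target, had 8.92 and 8.23 in TBI against 5.52 and 5.08 in TBI+MT (difference -0.69). For Hif3a, Mertk and Tat the groups overlapped after quantile normalization and after 75th percentile scaling. Of the genes named here Hif3a, Mertk and Cebpd had the smallest p of the list, and the others were chosen after their values were seen.

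**Figure D4:**
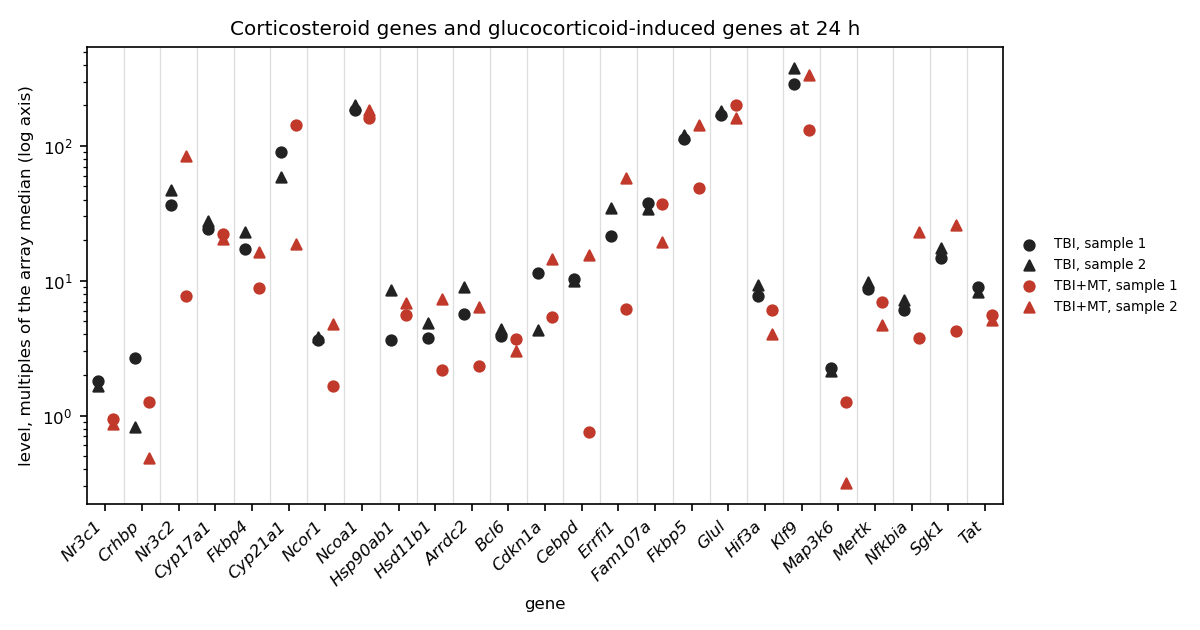
Level of each TBI and TBI+MT sample at 24 h (y axis, multiples of the array median, log axis) for the 10 kept genes of corticosteroid synthesis and reception, followed by the glucocorticoid-induced genes above background on all 4 TBI arrays (x axis). The TBI+MT samples are far apart for Nr3c2 (7.70 and 84.4), Cebpd (0.759 and 15.4) and Errfi1 (6.14 and 57.7).

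Cytokines and chemokines, whose genes are known to be repressed by glucocorticoids and raised by injury, were lower for 12 of 16 kept genes, and 5 (31.2%) lay below both TBI samples, beside 28.6% of all probes. Ccl2, which draws monocytes to injured tissue, was the single member with an unadjusted p under 0.05. It had 0.276 and 0.715 in sham, 3.51 and 4.26 in TBI, 0.450 and 1.55 in TBI+MT, and 1.32 and 1.01 in TBI+CB. The TBI samples were the highest, and the metyrapone samples did not overlap with them under any scaling (difference -2.21, SE 0.79, adjusted p = 0.835). Of the 4 metyrapone arrays 1 was above background.

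Cxcl11, a chemokine induced by interferon, had 1.75 and 1.75 in TBI against 0.661 and 0.338 in TBI+MT, where it was below background on all arrays and at least 1.33-fold lower (difference -1.89, SE 0.87). Tnf had 4.58 and 6.24 against 3.82 and 2.19 (difference -0.88, SE 0.51), and overlapped under both other scalings. Other genes of the list that were high after injury did not share this. Lcn2, an iron-binding acute phase protein, had 0.413 and 1.46 in sham, 25.7 and 39.1 in TBI, and 25.2 and 22.0 in TBI+MT, just below the TBI samples and far above sham (difference -0.43, SE 0.92). For Ccl7 metyrapone sample 1, at 3.55, was below the TBI levels of 9.80 and 16.6, and sample 2, at 16.1, between them. For Cxcl1 the metyrapone samples were at 1.08 and 16.0, on either side of TBI levels of 4.45 and 5.01. Lcn2, Ccl7 and Cxcl1 were chosen after their values were seen.

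The signaling genes downstream of TNF showed 9 of 20 kept members (45%) below both TBI samples and 3 (15%) above, beside 28.6% and 5.7% of all probes. With either other scaling 4 (20%) lay below, beside 16.9% and 14.4% of all probes. Nfkb2, a subunit of NF-kappaB, had 3.02 and 6.85 in TBI against 1.33 and 1.41 in TBI+MT, the 1 member with an unadjusted p under 0.05 (difference -1.73, SE 0.63, adjusted p = 0.835). Nfkb1 had 3.20 and 3.18 against 1.88 and 1.56 (difference -0.90, SE 0.46) and overlapped under both other scalings, and Traf2, an adaptor of the receptor, was below background in both groups. The inhibitor Nfkbia, chosen after its values were seen, had 6.09 and 7.19 in TBI but 3.75 in metyrapone sample 1 and 23.1 in sample 2.

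Immediate early genes, which report recent activity of neurons, counted 16 lower and 8 higher of 24 kept, with 6 (25%) below both TBI samples and 1 (4.17%) after either other scaling. All probes were lower for 74%, with 28.6% below both TBI samples, or 16.9% and 14.4%, so the list was at or under the share of all probes. Atf3, a transcription factor of injured neurons, had 11.2 and 9.65 in TBI against 6.07 and 5.25 in TBI+MT, beside 5.02 and 7.65 in sham (difference -0.88, SE 0.51). Junb had 2.97 and 3.43 against 1.96 and 1.44 (difference -0.93, SE 0.55). Both overlapped under the other scalings. Ier5, a regulator of heat shock genes, was higher, at 1.22 and 1.37 against 6.32 and 1.84 (difference 1.40, SE 0.72). Activity genes with bright probes split the metyrapone samples instead, as for Egr1 with 25.5 and 24.2 in TBI against 5.75 and 54.2, and Homer1 with 44.0 and 37.7 against 8.89 and 117, both chosen after their values were seen.

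Ion channels contributed the group with most unadjusted p under 0.05, in both directions. Of 19 kept sodium and calcium channel genes, 2 were higher and 2 lower at that level, beside 0.942% and 4.58% of all probes. Below both TBI samples lay 9 (47.4%, beside 28.6% of all probes), but 5 (26.3%, beside 16.9%) after quantile normalization and 2 (10.5%, beside 14.4%) after 75th percentile scaling. Beside Nalcn, Cacna2d2, an auxiliary subunit of calcium channels, had 5.92 and 6.51 in TBI and 1.41 and 1.53 in TBI+MT, with no overlap under any scaling (difference -2.08, SE 0.65, adjusted p = 0.745). Scn3a, a sodium channel of the developing brain, had 3.56 and 2.66 against 1.46 and 0.731 and was at least 2.34-fold lower (difference -1.57, SE 0.61), overlapping after 75th percentile scaling. Of 29 kept potassium channel genes 11 (37.9%, beside 28.6% of all probes) lay below both TBI samples, or 7 (24.1%, beside 16.9%) and 6 (20.7%, beside 14.4%) under the other scalings, among them Kcna5, with 1.60 and 2.16 against 0.796 and 0.498, and Kcna6, with 1.73 and 1.79 against 0.475 and 0.892, both below background after metyrapone.

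Axon guidance genes had 14 of 32 kept members below both TBI samples (43.8% beside 28.6% of all probes) and none above. The count was 7 after quantile normalization and 5 after 75th percentile scaling, beside 16.9% and 14.4% of all probes. Sema4b, a membrane semaphorin, had 1.92 and 1.42 in TBI against 0.637 and 0.338 in TBI+MT (difference -1.83, SE 0.69, at least 1.20-fold lower), and Unc5b, a netrin receptor, 2.51 and 2.03 against 0.505 and 1.67 (difference -1.30, SE 0.55). In the kinase pathways, Inpp5d, a lipid phosphatase of blood and immune cells, had 4.24 and 3.80 against 1.99 and 1.25 (difference -1.35, SE 0.50), and Tsc1, a brake on mTOR, 3.55 and 3.03 against 1.55 and 1.24 (difference -1.24, SE 0.49). Adcy5, an adenylyl cyclase, had 16.4 and 32.2 against 6.78 and 12.4 (difference -1.32, SE 0.59), and the glutamate receptor Grm5 2.08 and 1.85 against 0.759 and 0.999 (difference -1.17, SE 0.50). None of the 6 passed, with adjusted p from 0.836 to 0.891.

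Genes of the mitochondrial respiratory chain divided the metyrapone samples more than they divided the groups. Of 13 kept subunits and assembly factors of complex IV (cytochrome c oxidase), 10 were below both TBI samples in metyrapone sample 1 and above both in sample 2, 76.9% beside 33.4% of all probes. Their median less that of all probes was -0.60 in sample 1 and 1.22 in sample 2, and -0.85 and 1.10 after quantile normalization. Sample 1 has the dimmest arrays of the comparison, and the part of brightness in this split was not tested. Cox7a2l, which joins complexes into supercomplexes, had 13.2 and 18.0 in TBI against 2.08 and 48.0, and Cox17, a copper chaperone, 2.72 and 3.91 against 0.963 and 13.3. Cox6c, a small subunit, had 5.01 and 7.80 against 2.43 and 22.3. The fitted differences of these genes were -0.62, 0.13 and 0.24, although neither metyrapone sample was near the TBI samples. Cox8a, the complex IV gene with the smallest p, had 18.7 and 23.4 against 8.25 and 25.0, and no member had an unadjusted p under 0.05. Cox7a2l, Cox17 and Cox6c were chosen after their values were seen.

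Complex V (ATP synthase) had 8 of 12 kept members in the same order, with medians of -0.59 and 0.56 less all probes, and ubiquitin conjugation genes 22 of 31 (71%), with -0.72 and 0.63. Atp5mc3, a membrane subunit, had 62.1 and 101 in TBI against 17.8 and 190 in TBI+MT, and Atp5f1a, a catalytic subunit, 44.8 and 63.2 against 13.2 and 101. Ube2d3, a ubiquitin-conjugating enzyme, had 21.4 and 23.6 against 4.38 and 109. These 3 genes were chosen after their values were seen. Complex I was split less, with 13 of 25 members (52%) in that order and medians of -0.37 and 0.23. Ndufs8, an iron-sulfur subunit, was the complex I gene with the smallest p, at 56.6 and 83.5 against 24.4 and 39.2 (difference -1.15, SE 0.57).

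Less the median of all probes, sample 1 was above sample 2 for several lists, among them those of microglia, oligodendrocyte, endothelial and cytochrome P450 genes. It was so too for astrocyte genes (0.30 and -0.20), potassium channels (0.40 and -0.39), glutamate receptors (0.20 and -0.55), sodium and calcium channels (0.27 and -0.15) and axon guidance genes (0.11 and -0.36). This is an order relative to all probes: of 14 endothelial genes, 0 had sample 1 above and sample 2 below both TBI samples. Microglia genes had medians of 0.85 and -0.40 less all probes, oligodendrocyte genes 0.46 and -0.92, endothelial and pericyte genes 0.35 and -0.58, and P450 genes 0.43 and -0.72. Of 17 kept P450 genes 9 (52.9%, beside 28.6% of all probes) lay below both TBI samples, and 0 under either other scaling, beside 16.9% and 14.4% of all probes. Cspg4, a proteoglycan of oligodendrocyte precursors and pericytes, had 11.4 and 10.6 in TBI against 10.6 and 1.41. Cx3cr1, the fractalkine receptor of microglia, had 3.43 and 2.52 against 3.05 and 0.817. The difference between the samples of a group was also taken in the other groups for the complex IV list, less that of all probes, and was -2.42 for TBI+MT, 1.12 for sham, 0.31 for TBI+CB and -0.20 for TBI, and for the microglia list 1.37, -1.07, -1.02 and 0.10.

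**Figure D5:**
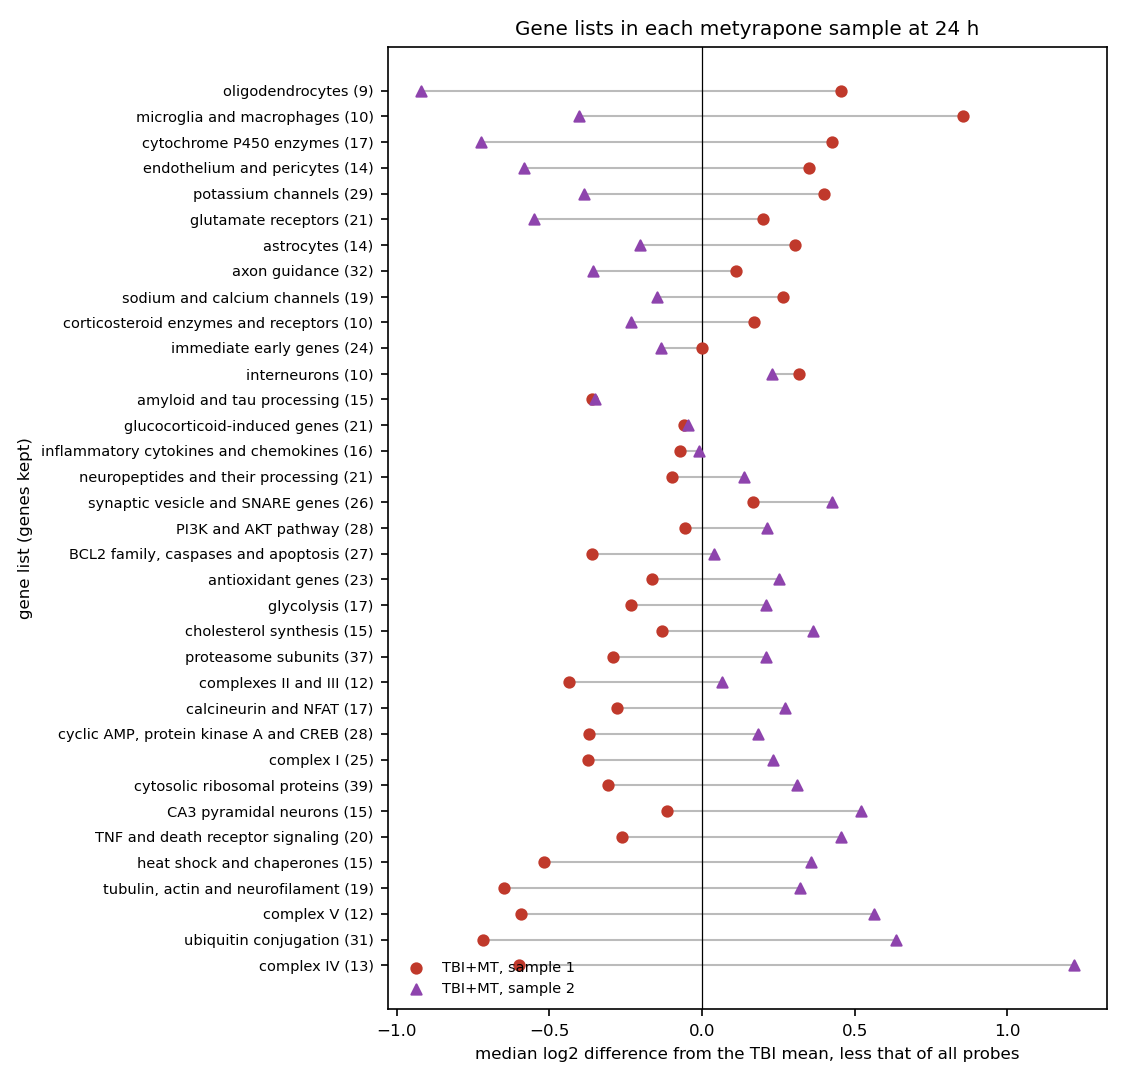
Median log2 difference from the TBI mean, less the median of all probes (x axis), for each gene list with 9 or more genes kept (y axis, number of genes in brackets), with a circle for TBI+MT sample 1 and a triangle for sample 2. The samples lie on opposite sides of 0 for most lists, from complex IV at -0.60 and 1.22 to oligodendrocytes at 0.46 and -0.92. The 2 medians coincide for the glucocorticoid-induced genes, at -0.06 and -0.05, and for amyloid and tau processing, at -0.36 and -0.35. The single genes need not agree: 8 of the 21 glucocorticoid-induced genes had sample 1 below and sample 2 above both TBI samples.

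Markers of other cells were present in the captured material of both groups. Of 6 pyramidal neuron markers 3 were kept. These, Slc17a7, Camk2a and Grik4, were above background on all 8 arrays and summed to 169 and 258 in TBI and 143 and 220 in TBI+MT. Of the interneuron markers 3 of 5 were kept, with sums of 89.4 and 70.5 against 101 and 63.9. The sums were 139 and 122 against 163 and 103 for 5 microglia markers, 106 and 153 against 86.9 and 163 for 5 astrocyte markers, and 40.3 and 61.8 against 33.8 and 61.6 for 3 oligodendrocyte markers. These ranges overlapped between the groups. A sum follows its brightest probes and does not measure the amount of a cell type. Endothelial and pericyte markers summed to 49.99 and 67.1 in TBI and 36.8 and 30.4 in TBI+MT, with no overlap. This depended on scaling: Pecam1, Flt1 and Pdgfrb overlapped under both other scalings. Of the full list, 6 of 14 members (42.9%) lay below both TBI samples, beside 28.6% of all probes. The count was 3 (21.4%) under either other scaling, beside 16.9% and 14.4% of all probes. Cldn5, a tight junction protein, had 14.5 and 23.8 against 5.51 and 10.9 (difference -1.26, SE 0.55, adjusted p = 0.889). Of the blood markers only Alas2 was kept, at 1.10 and 3.18 against 0.805 and 2.63. The part of these cells in the differences above was not tested.

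Of 10 kept microglia and macrophage genes, 8 were lower and 2 higher, but 7 were higher after quantile normalization and 8 after 75th percentile scaling, so the list has no settled direction. The 2 higher as reported were Tyrobp and Cd14, and neither passed. Tyrobp, a signaling adaptor, had 8.27 and 13.9 in sham, 40.3 and 46.8 in TBI, and 79.9 and 48.6 in TBI+MT (difference 0.52, SE 0.71), and overlapped under both other scalings. Cd14, chosen after its values were seen, had 0.422 and 1.49 in sham, 6.42 and 5.61 in TBI, and 8.50 and 8.36 in TBI+MT, above both TBI samples under all scalings (difference 0.49, SE 1.21). Of 4 kept genes of ependyma and choroid plexus 2 were higher and 2 lower. Folr1, a folate receptor of choroid plexus, had 16.8 and 17.6 in TBI against 8.43 and 2.97 (difference -1.78, SE 0.59, adjusted p = 0.774), whereas Ttr, the choroid plexus protein transthyretin, had 0.394 and 0.393 against 0.760 and 0.856, below background in both groups. Ttr was chosen after its values were seen. Rpl6, a ribosomal protein, had 13.0 and 87.4 against 3.62 and 7.12 (difference -2.73, SE 0.96, adjusted p = 0.816), where the TBI samples themselves were far apart.

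Metyrapone was set against carbenoxolone because both drug groups share a slide run at 24 h. Carbenoxolone inhibits 11-beta-hydroxysteroid dehydrogenase, as metyrapone does too by the study's account. Brightness differed within this run as well, with carbenoxolone sample 2 about as dim as metyrapone sample 1, and carbenoxolone sample 1 brighter than both metyrapone samples. No probe passed among 17645 (smallest adjusted p = 0.767), 896 had an unadjusted p under 0.05 (5.08%, of which 1.63% were higher), 37.9% were higher in direction and 7.26% over 2-fold higher, and the metyrapone samples lay above both carbenoxolone samples for 1499 probes (8.51%) and below both for 1823 (10.4%). Map6, a microtubule-stabilizing protein of neurons, had the smallest p on the lower side, with 0.534 and a value at the floor of 0.1 in TBI+MT and 3.24 and 3.17 in TBI+CB (difference -3.79, SE 0.86, adjusted p = 0.767). Metyrapone was below background on all arrays here, so the probe was at least 2.43-fold lower. Its TBI levels were 1.26 and 4.60. The brighter Map6 probe differed by -0.12, with 101 and 135 against 178 and 90.3. By this probe the groups overlapped and the bound of the first was not met. Mamdc4 was lower than with carbenoxolone too (difference -1.92, SE 0.45, adjusted p = 0.767), as were Pced1a, Gsdme and Sdcbp2. For Mamdc4 metyrapone was below background on all arrays and carbenoxolone sample 2 under the lowest signal above it, so these cannot be ranked.

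On the higher side against carbenoxolone stood Wwox, Recql4, Tnfrsf9, Acvr2b and Psmb3. Wwox, an oxidoreductase with tumor suppressor roles, had 27.1 and 47.6 in TBI+MT, 5.37 and 7.15 in TBI+CB, and 17.9 and 12.2 in TBI (difference from carbenoxolone 2.53, SE 0.61, adjusted p = 0.78). Psmb3, a proteasome subunit, had 79.4 and 55.7 against 10.9 and 26.1, with TBI at 82.6 and 102, so that by this probe carbenoxolone was the lowest group. The brighter Psmb3 probe did not share this, with a difference from carbenoxolone of 0.12. The comparisons with saline and with carbenoxolone share the metyrapone samples, and their values are given side by side only.

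The difference between drug and saline was also compared between 24 h and 4 h. No probe passed (smallest adjusted p = 0.98), and 828 had an unadjusted p under 0.05 (4.7%, higher at 24 h for 1.97% and lower for 2.73%), with 49.8% higher in direction. Phc3, a Polycomb protein, had a metyrapone difference of 0.87 at 24 h and 6.26 at 4 h, so that the change between times was -5.39. At 24 h its metyrapone and TBI samples overlapped as reported, and metyrapone was above TBI under both other scalings. The samples of a group also differed at 4 h, by more than 2-fold for 32.7% of the probes in TBI and 39.1% in TBI+MT. At 4 h the TBI samples lay in different slide runs, and both TBI+MT samples in the run of TBI sample 2. Sample and slide run thus cannot be told apart in TBI at 4 h. For Mamdc4 the differences were -2.99 at 24 h and 0.20 at 4 h, for Yap1 -2.85 and 0.24, and for Pola1 -3.01 and -0.36. Zfand2a had 2.48 at 24 h and -1.58 at 4 h, and Haus3 2.37 and -1.81. Mamdc4, Yap1, Pola1, Zfand2a and Haus3 were chosen by their p at 24 h. That choice favors a large difference at 24 h over that at 4 h, so these values are a description. The median over all probes was -0.39 at 24 h and -0.40 at 4 h.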

How the data were processed

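Per the file headers the arrays were scanned and quantified with CodeLink software by the authors, who deposited a raw intensity and a quality flag per spot, with values below 0 that point to subtracted background, which no file states. The deposited processed intensity values equal the raw intensity over the array median to within a factor near 1 (column medians 1.01 to 1.03), so their scale and direction are known. Of 33849 probes 16878 had 1 gene symbol in the platform annotation, 182 several and 16789 none, and 16834 symbols were updated by gene number. Control spots, masked and irregular spots were left out, intensity was divided by the array median with a floor of 0.1 and taken to log2, and duplicate arrays were averaged. A probe was kept where at least 1 of 8 groups had all its measured spots above background. With limma 3.58.1 in R 4.3.3 (data.table, version 1.17.8), 1 model was fitted to 16 samples, with 8 residual and 3.88 prior degrees of freedom and Benjamini-Hochberg adjustment at 0.05. The number of arrays limits the precision.

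A probe below background on all arrays of 1 group has a bound only: the brighter mean against the higher of the dim signal and the lowest signal above background. The brighter mean is used as measured, so the bound is no firm minimum where some arrays of the brighter group were below background too. Gene lists use the probe with the highest mean per gene. Named genes were the kept corticosteroid genes, the 10 smallest p and the 8 widest gaps on each side, the 3 smallest p of each list and the 5 smallest p on each side of the other comparisons, without predicted genes. The comparison, lists and rule were chosen with earlier results of these data known. Alternatives covered scaling, floor, filters, flags, duplicate arrays, groups in the fit, variance, weights, blocks and left-out samples, and the scripts were tested on simulated data. Of 39 gene lists, 1 holds genes the study names and was chosen by it on these samples. Each list is described by counts, with no test.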

Additional observations from a re-analysis of the deposited data

How the results depend on the processing

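No probe passed in the comparison with saline except under quantile normalization (2 probes) and with array a only (2), and array b only gave 0. Probes over 2-fold higher numbered 972, but 1498 with 75th percentile scaling, 4043 without a filter, 72 above background on all arrays compared and 36 where the 4 arrays of a group differed by under 2-fold. Probes over 2-fold lower numbered 2430, but 1333, 3771, 481 and 395 under the same settings. The share of lower probes among those over 2-fold was 71.4%, 61.8% with quantile normalization and 47.1% with the 75th percentile. Leaving out 1 sample at a time gave 801 to 4120 higher and 2295 to 6920 lower: without TBI+MT replicate 1 there were 4120 higher and 3144 lower, and without TBI+MT replicate 2 801 higher and 6920 lower, and the lone sample is then assumed to vary like the other groups. Metyrapone sample 1 alone gave 6919 lower and sample 2 alone 4120 higher, counts chosen after seeing the data. Against carbenoxolone 3 probes passed with array b only, 1 with all arrays and the sample as a random block, 1 without TBI+MT replicate 2 and 1 without TBI+CB replicate 1 (0 to 1 over left-out samples), and 0 with a term for the slide run. The difference between 24 h and 4 h gave 0 in every setting run. Probes with an unadjusted p under 0.05 against saline numbered 973, but 531 with only the groups compared, 571 with the 24 h groups, 464 with sample weights and 222 above background on all arrays. They numbered 2344 without TBI+MT replicate 2, 1784 without TBI+MT replicate 1, 496 without TBI replicate 1, 472 without TBI replicate 2, 1746 without a filter, 538 with arrays within 2-fold, 1114 with array a only and 1055 with quantile normalization. Replicate numbers do not pair the samples: the replicate differences correlated at 0.11 between TBI and TBI+MT and at -0.57 between sham and TBI+MT. A replicate block gave 0 probes and 775 with an unadjusted p under 0.05, and changed no call. A slide run term could not be fitted for the comparison with saline or for the difference between times, so it was not run. Of the named genes' differences under the alternatives 3521 kept their direction and side of the threshold or moved by less than the spread. A further 146 moved by more and 3 newly passed (Mamdc4 and Pola1). Of list medians 843 stayed within the spread and 52 moved. The spread here is the SD between the 2 metyrapone samples, which differed most of all groups, so a turned sign can count as unmoved. Several alternatives change the SE and leave the difference as it was. These counts therefore do not measure stability. The cause of the shifts was not tested.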
